A study of Mus musculus with 22 samples.

Results

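Notch1 was read by 6 probes of a mouse genome array for comparative genomic hybridisation, out of 232626 probes with a genome position. The probes are those whose gene name in the array files is Notch1, and they were joined to all 22 arrays by their spot number. They lie on chromosome 2 between positions 26466605 and 26508948, a stretch of 42344 bases, in the coordinates of the array files, and the sources used here do not name their genome build. The gene was chosen by its log2 ratios and gain calls in these same arrays, so all its levels, calls and steps are given as descriptions with no test. Exon or intron positions are not given, since no annotation of the array's own build was used here.

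Notch1 is a cell surface receptor. When a Delta-like or Jagged ligand on a neighbouring cell binds it, ADAM proteases and then gamma-secretase cut it, and its intracellular domain enters the nucleus, where it joins Rbpj and Mastermind-like proteins to switch on target genes. In the thymus this signal commits progenitors to the T-cell lineage, and overactive Notch1 is a common driver of T-cell leukaemia and lymphoma in mice and humans, in mice at times through deletions that remove the 5′ end of the gene.

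The DNA came from thymocytes of 22 mice deficient in Atm, the kinase that answers DNA double-strand breaks, and each mouse has 1 array. Per the labels, 8 mice had a thymic lymphoma and 14 were macroscopically without findings. Each mouse's DNA, labelled with Cy5, was set against wildtype thymocyte DNA, labelled with Cy3, in the same dye orientation throughout, so dye and genotype cannot be told apart. The mice were untreated, and strain, age, sex, the altered part of Atm and any pooling of the wildtype DNA are not stated in the labels used here. Each value is the log2 of the Atm-deficient over the wildtype signal, after subtracting the median of all autosomal probes on that array. In DNA from a whole thymus, the share of cells with a gain and the number of copies per cell cannot be told apart.

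Noise between neighbouring probes had an SD of 0.15 to 0.37 in the lymphoma arrays and 0.13 to 0.55 in the others. This noise SD is that of a single probe and not of a mean over probes. Of the 12 Atm probes, the one with the highest median lay at 0.95 to 1.32 in the lymphoma arrays. It lay at 0.08 to 1.69 in 11 of the other arrays, but at -1.08 to -0.63 in the 3 arrays of scan batch 2, those labelled no-lymphoma mouse 1, 3 and 4. The highest of the 11 was the array labelled no-lymphoma mouse 9. A scan batch holds the arrays scanned on 1 day per the file headers. The noisiest arrays were those labelled no-lymphoma mouse 3, 4 and 9, which correlated at 0.82 to 0.87 with each other over the autosomal probes and at -0.44, -0.48 and -0.41 with lymphoma mouse 3. The direction of the arrays labelled mouse 1, 3, 4 and 9 is therefore unsettled, by the Atm probe for the first 3 and by the correlations for the last 3. Group differences in Notch1 are also given without the 3 noisy ones, and with the sign turned for these or for scan batch 2.

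Numbered from 1 at the lowest position, probe 1 lies nearest the 3′ end of Notch1 and probe 6 nearest the 5′ end. That orientation rests on the minus strand that RefSeq gives the gene in the assembly GRCm38.p6 and on the same order of neighbours there, Sec16a below and Egfl7 above. RefSeq's Notch1 is 45921 bases long. The 4 probes that stand on either side of the steps inside the gene are printed here, in lower case with no part marked, in the letters of the array files, which do not give their strand.

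Notch1 probe 2, chr2:26473153-26473212: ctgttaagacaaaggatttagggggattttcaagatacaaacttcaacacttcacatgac
Notch1 probe 3, chr2:26484528-26484587: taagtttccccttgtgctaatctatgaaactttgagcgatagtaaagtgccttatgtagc
Notch1 probe 5, chr2:26501891-26501946: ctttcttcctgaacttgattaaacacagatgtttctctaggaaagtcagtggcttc
Notch1 probe 6, chr2:26508889-26508948: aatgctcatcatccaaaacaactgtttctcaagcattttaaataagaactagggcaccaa

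Probes 2 and 3 flank the step in lymphoma mouse 4, and probes 5 and 6 flank the step in lymphoma mouse 1. The 6 probes are 56 to 60 bases long, with 33.3% to 39.3% G and C. The DNA was cut before labelling with AluI, which cuts at AGCT, and RsaI, which cuts at GTAC. Neither site, both of which read the same on either strand, occurs in any of the 6 probes. Among all 232626 probes, 0.0219% hold AGCT and 0.0138% hold GTAC.

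All 6 Notch1 spots were well above background in both channels on 22 of 22 arrays, and none was saturated or flagged as an outlier. The Cy3 channel, wildtype DNA as labelled, had median intensities of 1163, 968, 451, 787, 411 and 1491 for probes 1 to 6. Probes 3 and 5 were the dimmest. The Cy3 signal of probe 5 ranged from 150.2 to 2121, the widest of the 6 relative to its median, against 1127 to 1813 for probe 6.

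Notch1 was gained along all or part of its length in 4 of the 8 lymphomas, and each of the 4 had another shape. Lymphoma mouse 1 had a high gain that stopped inside the gene near its 5′ end. Lymphoma mouse 2 had a broad, even gain. Lymphoma mouse 3 had a narrower gain whose higher segment covered the gene, and lymphoma mouse 4 had a short gain that covered only the 3′ probes. Among the 14 mice without a visible tumour, mouse 11 had a broad gain and mouse 2 a raised level over the gene that was not called.

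**Figure D1:**
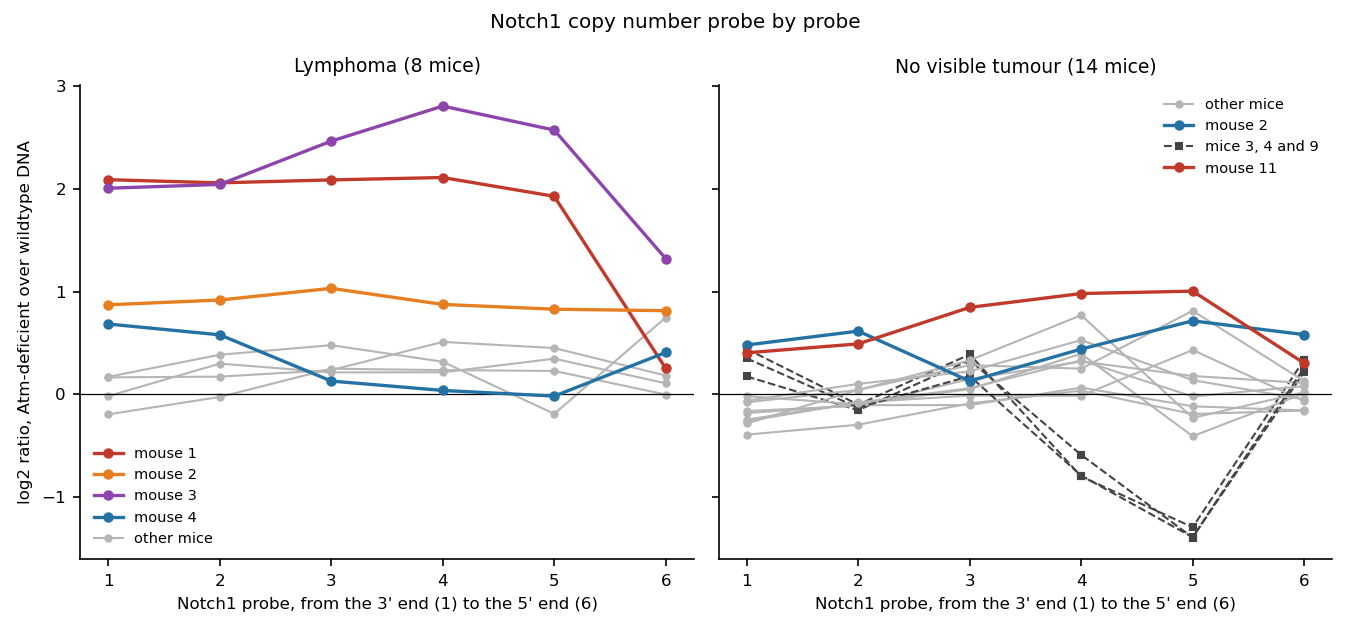
Log2 ratio of each Notch1 probe, ordered from the 3′ end (1) to the 5′ end (6), with 1 line per mouse; the left panel holds the 8 lymphoma mice and the right panel the 14 mice with no visible tumour. Lymphoma mouse 1 falls from 1.93 at probe 5 to 0.25 at probe 6, lymphoma mouse 4 lies low at probes 3 to 5, and 3 arrays, labelled no-lymphoma mouse 3, 4 and 9, fall to between -1.39 and -1.29 at probe 5.

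The mean of the 6 probes was 1.75, 0.89, 2.20, 0.30, 0.19, 0.08, 0.29 and 0.32 in lymphoma mice 1 to 8. Lymphoma mouse 3 was the highest, at 4.60 times the wildtype signal, followed by mouse 1 at 3.37 times and mouse 2 at 1.85 times. The other 5 lymphomas lay between 0.08 and 0.32, a range that the no-lymphoma arrays shared. In those 14 arrays the mean ran from -0.25 to 0.67 with a median of 0.01, and only mice 11 (0.67) and 2 (0.49) exceeded all of lymphoma mice 4 to 8. The group means were 0.75 ± 0.80 (SD, n = 8) and 0.06 ± 0.27 (SD, n = 14), a difference of 0.70 that is smaller than the spread within the lymphoma group. Leaving out the 3 noisy arrays gave 0.62, and turning their sign gave 0.60. Turning the sign of scan batch 2 gave 0.61. Blocking on the scan batch gave 0.41, and within batches 1, 3, 5 and 6 it was 0.93, 0.59, 0.05 and -0.02. The 3 highest lymphomas were all in batches 1 and 3. Batch 1 held only lymphoma mice 1, 3 and 4 and no-lymphoma mouse 2, the last at 0.49. The part of the scan batch in the difference was not tested.

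Read probe by probe, the lymphoma group's mean was 0.72 ± 0.89, 0.80 ± 0.82, 0.86 ± 0.92, 0.89 ± 1.02, 0.77 ± 0.98 and 0.48 ± 0.45 from probe 1 to probe 6 (SD, n = 8). The group's lowest level was thus at the 5′-most probe. In the no-lymphoma group the values were 0.01 ± 0.30, 0.01 ± 0.25, 0.20 ± 0.24, 0.14 ± 0.54, -0.13 ± 0.79 and 0.12 ± 0.21 (SD, n = 14). The difference between the groups was smallest at probe 6, at 0.36, and ran from 0.66 to 0.89 at the other 5 probes. Without the 3 noisy arrays it was 0.79, 0.76, 0.69, 0.52, 0.56 and 0.41 from probe 1 to probe 6, and the no-lymphoma mean at probe 5 was 0.21. With their sign turned the smallest difference was at probe 5, at 0.31, beside 0.48 at probe 6, so the order of the probes depends on these arrays. The groups overlapped at every probe.

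Each array was divided into segments of at least 5 probes with a common level, and a gain was called where the mean of a segment reached 0.25. At the midpoint of Notch1, 3 of 8 lymphomas were gained, mice 1, 2 and 3, with segment means of 2.19, 0.81 and 1.62. Of 12986 autosomal genes with at least 3 probes, 7.35% were gained at the midpoint in 3 or more lymphomas. In the no-lymphoma group 1 of 14 was gained, mouse 11, with a segment mean of 0.40. A gain in at least 1 no-lymphoma mouse was seen for 25.3% of genes. That segment was the lowest above the threshold, and the nearest below it was that of lymphoma mouse 4, at 0.19, followed by lymphoma mouse 7, at 0.14. Counting any Notch1 probe in a gained segment added lymphoma mouse 4, giving 4 of 8, a count that 6.42% of genes reached. The lowest segment mean at the gene's midpoint was -0.103, in the array labelled no-lymphoma mouse 1.

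**Figure D2:**
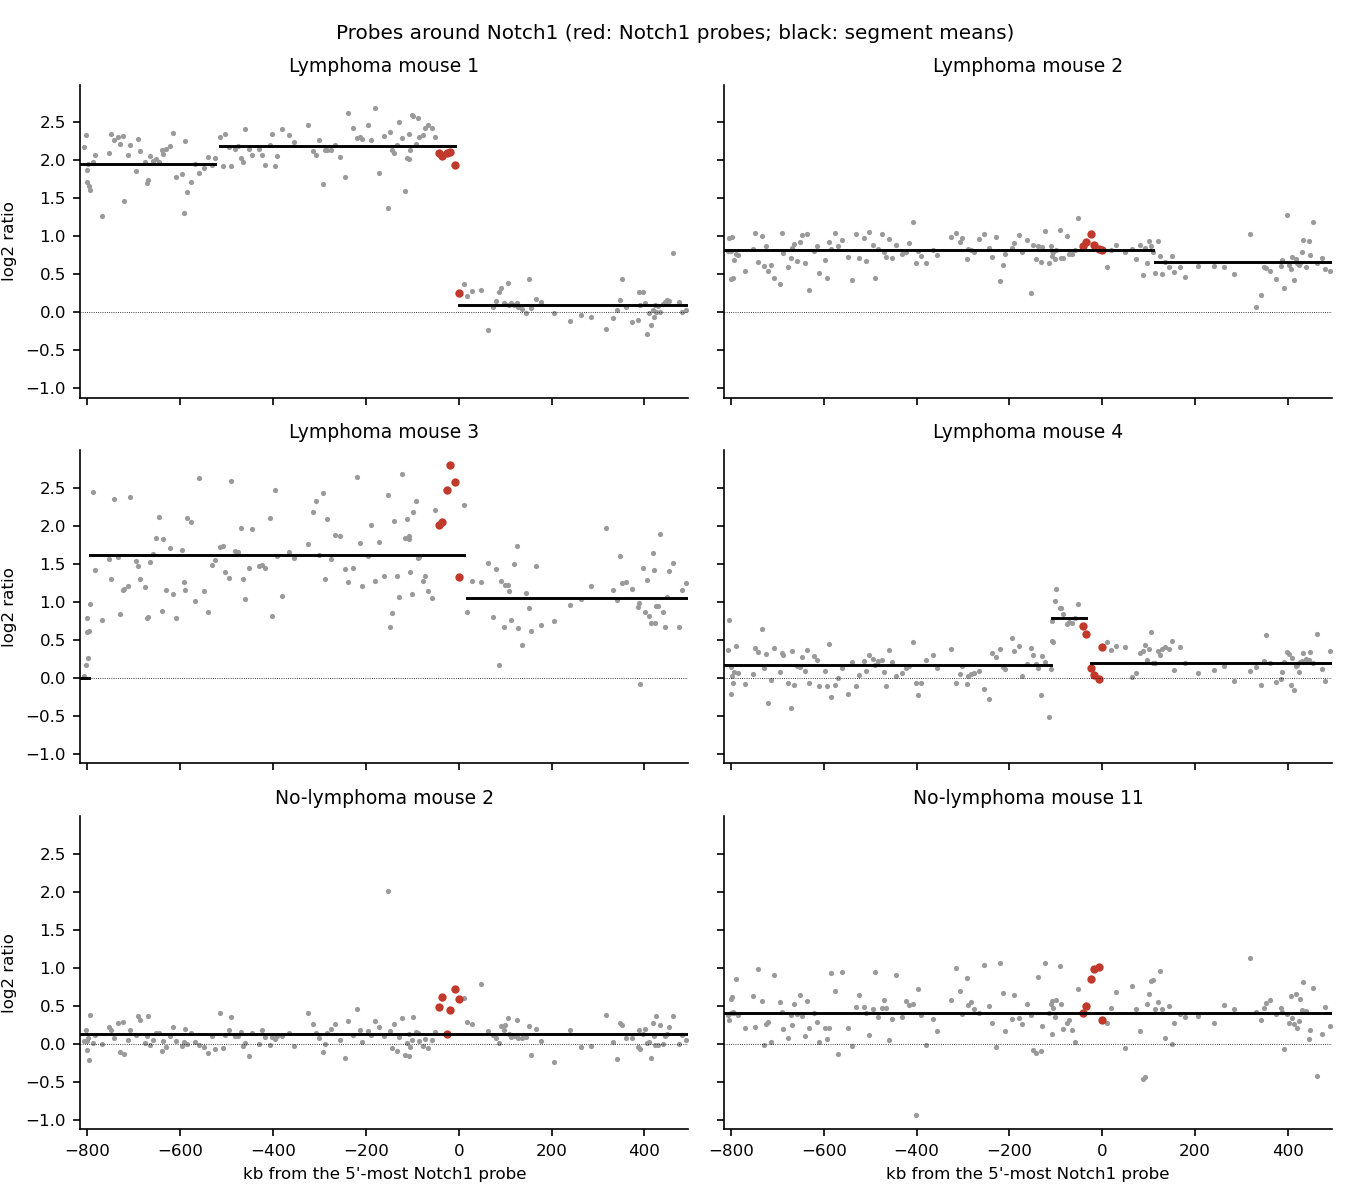
Log2 ratio of single probes (points) against the distance in kb from the 5′-most Notch1 probe, for 4 lymphoma mice and 2 no-lymphoma mice, with Notch1 probes in red and segment means as black lines. In lymphoma mouse 1 the level drops at the right end of the gene from a segment mean of 2.19 to one of 0.10, in lymphoma mouse 2 it stays level across the gene at 0.81, and in lymphoma mouse 4 a segment of 15 probes stands out at 0.78.

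In lymphoma mouse 1 the Notch1 probes read 2.09, 2.06, 2.09, 2.11, 1.93 and 0.25 from the 3′ to the 5′ end. The first 5 lay between 1.93 and 2.11, and probe 6 was at the level of the DNA beyond the gene. The 10 probes just below Notch1 averaged 2.42 and the 10 just above it 0.18. The segment that holds probes 1 to 5 spans chr2:25995288-26501946 with 70 probes, and the next begins with probe 6 and has a mean of 0.10 over 9.68 Mb. The edge therefore lies in the 6943 bases between probes 5 and 6 printed above. The 5′ step, the mean of probes 5 and 6 minus the mean of the other 4, was -0.997. Among the 11832 ends of genes with at least 6 probes, 0.0592% had a step of that size in this array.

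The gain of lymphoma mouse 1 reached back to the first probe of chromosome 2, at 3010301, over 23.5 Mb and 2122 probes. Its level rose in steps towards Notch1. From the start of the chromosome the successive segment means were 0.55, 0.44, 0.63, 0.86, 1.17, 1.45, 1.68, 1.95 and 2.19. The last 5 of these segments were 0.68, 0.51, 0.21, 0.51 and 0.51 Mb long, while the first was 11.1 Mb long. The highest level on this stretch was thus the one that ended inside Notch1.

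**Figure D3:**
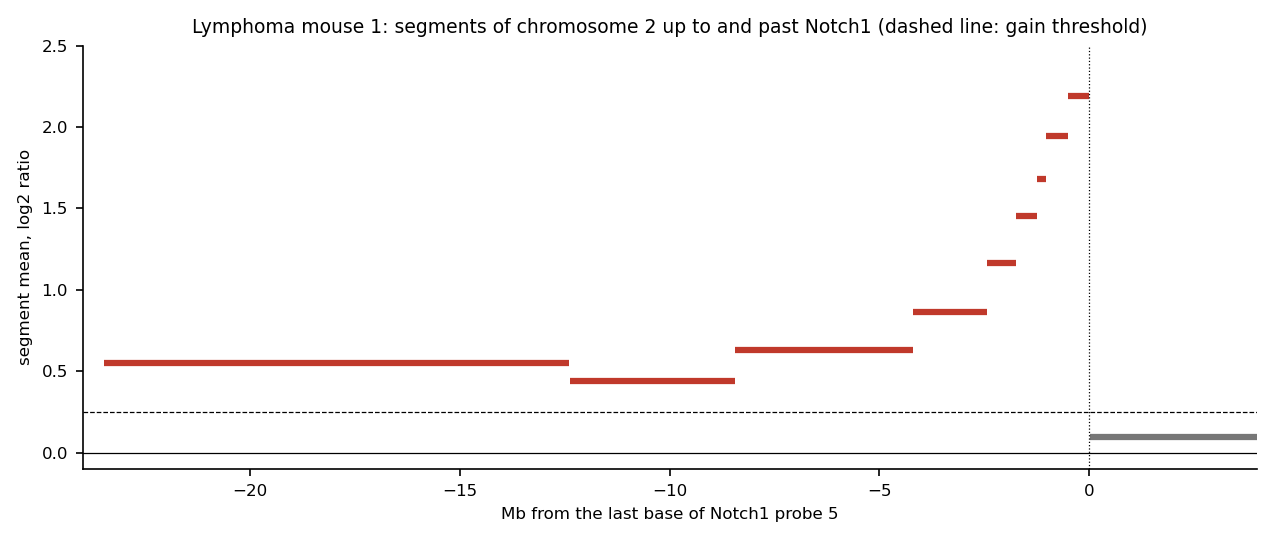
Mean log2 ratio of each segment of chromosome 2 in lymphoma mouse 1 (bars) against the distance in Mb from the last base of Notch1 probe 5, with the gain threshold of 0.25 as a dashed line. From the lowest bar, at 0.44, the bars climb to 2.19 and end inside Notch1, and the next segment lies at 0.10.

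In lymphoma mouse 2 the probes read 0.87, 0.92, 1.03, 0.88, 0.83 and 0.81. They spread by an SD of 0.08, the smallest among the 22 arrays, and no step inside the gene was called. The flanks were read in a window of 173 probes around and including the gene, whose outermost named genes are Obp2a, at 25708187, and Adamts13, which ends at 26999030. The median of the flank probes was 0.81 below the gene and 0.64 above it. Notch1 exceeded the median of both flanks together by 0.13, with a noise SD of 0.15 for single probes. The gained run covered chr2:3010301-40447809, or 37.4 Mb with 3763 probes. It was not level throughout. Its segment means between 13653726 and 37346172 ran from 0.37 to 0.81, and the segment over Notch1 was the highest of these.

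In lymphoma mouse 3 the probes read 2.01, 2.04, 2.47, 2.81, 2.57 and 1.32. Probes 3 to 5 were the highest and probe 6 the lowest, although probe 6 was still far above 0. Single probes outside the gene also read high in this mouse, with 2.63 at -560.6 kb and 2.60 at -490.0 kb from probe 6. A rise at probes 3 to 5 was not particular to gained arrays. Probes 3 to 5 averaged above probes 1 and 2 in all lymphomas but mice 1, 4 and 8. The same held in all no-lymphoma arrays but those labelled mouse 2, 3, 4 and 9. In lymphoma mouse 6 they averaged 0.24, against -0.11 for probes 1 and 2, but in lymphoma mouse 8 they averaged 0.20, against 0.28. The gained run covered chr2:25714935-28684923, or 2.97 Mb with 357 probes. Its segment mean fell from 1.62 to 1.05 just beyond the 5′ end of Notch1, after position 26519451. The gene lay 0.89 above the median of the window, against a noise SD of 0.37 in this array, the highest of the lymphoma group. Measured against all probes within 650 kb of a gene's midpoint, the excess was 0.90, and 0.0679% of 5894 genes with at least 6 probes had one as large in this array. Its 5′ step of -0.38 was matched or exceeded at 21.9% of gene ends.

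In lymphoma mouse 4 the probes read 0.68, 0.58, 0.13, 0.04, -0.02 and 0.41. The first pair belonged to a gain of 15 probes at chr2:26400799-26473212 with a mean of 0.78, which ended in the 11316 bases between probes 2 and 3. This gain was 0.07 Mb long, the shortest of the 5 gained runs over Notch1, and it also covered probes of Pmpca, a subunit of the mitochondrial processing peptidase, Inpp5e, an inositol phosphatase of the primary cilium, and Sec16a, which organises export sites of the endoplasmic reticulum. A segment break inside a gene of at least 6 probes occurred in 2 or more lymphomas for 4.94% of 5916 genes.

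Beyond that break, probes 3 to 5 averaged 0.05 in lymphoma mouse 4, and probe 6 with the 9 probes after it averaged 0.33. The 3 middle probes thus lay below both sides, but at the level of wildtype DNA and not below it. Their mean differed by -0.39 from the lower of the 2-probe means on their sides. Of 219909 runs of 3 autosomal probes in this array, 0.317% lay as far below. A run of 3 probes is shorter than the smallest segment allowed, so this dip was not called, and its 5′ step of -0.16 was no larger than that of 34.4% of gene ends.

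**Figure D4:**
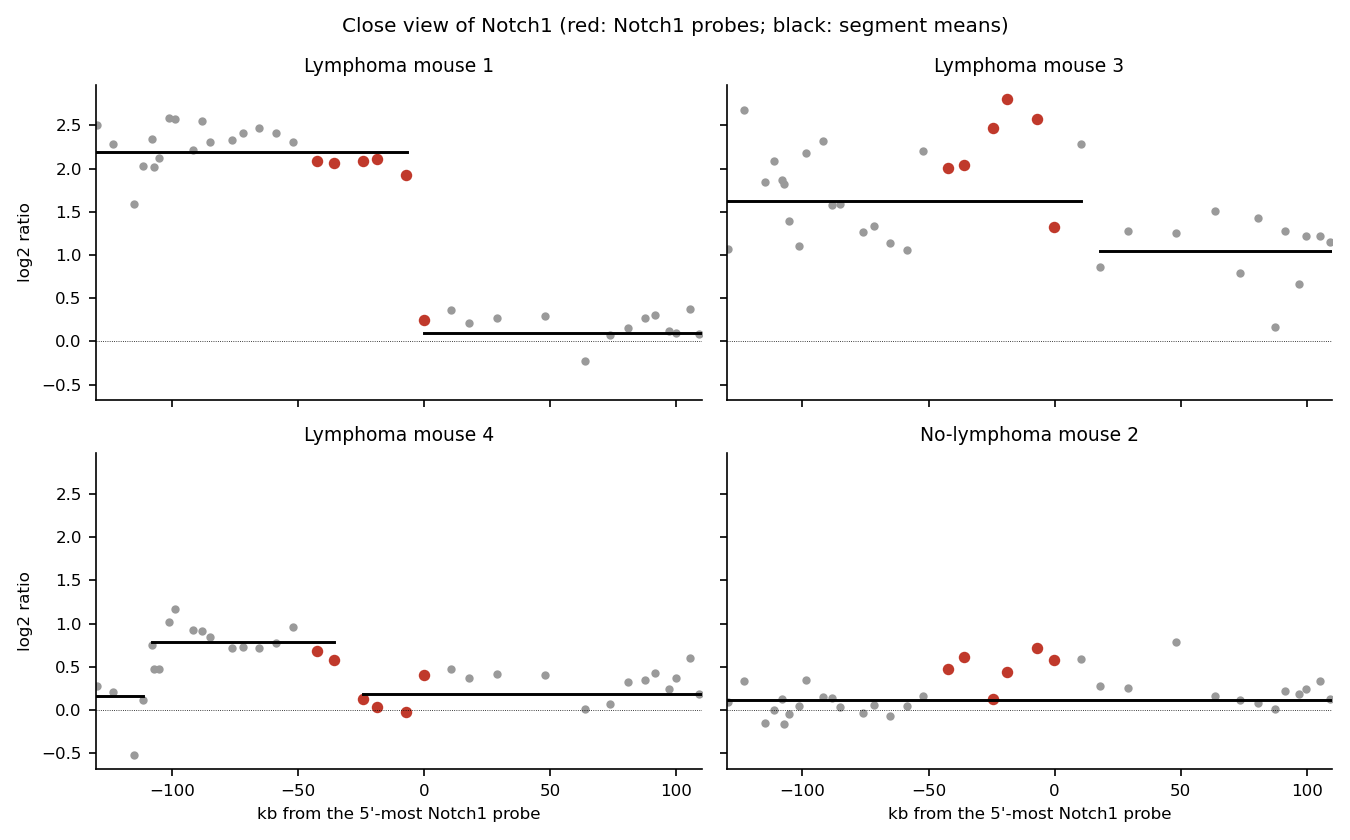
Log2 ratio of single probes (points) around Notch1 against the distance in kb from its 5′-most probe, for lymphoma mice 1, 3 and 4 and no-lymphoma mouse 2, with Notch1 probes in red and segment means as black lines. The gain of lymphoma mouse 1 ends between the last pair of Notch1 probes, that of lymphoma mouse 4 between probes 2 and 3, and 5 of the 6 Notch1 probes of no-lymphoma mouse 2 lie between 0.44 and 0.72.

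The remaining lymphomas showed no called change over Notch1. In lymphoma mouse 5 the 6 probes ran from -0.02 to 0.35, and in mouse 6 from -0.19 to 0.25. In mouse 7 they ran from 0.17 to 0.51, and in mouse 8 from -0.19, at probe 5, to 0.75, at probe 6. All 6 probes were above 0 in mouse 7, and 5, 3 and 5 of them in mice 5, 6 and 8. Notch1 was the highest of the 17 window genes with at least 3 probes in lymphoma mice 7 and 8, as in lymphoma mouse 3.

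In the group without a visible tumour, mouse 11 had probes at 0.40, 0.49, 0.85, 0.98, 1.005 and 0.30. Probes 3 to 5 were raised above their neighbours here, as in lymphoma mouse 3, but also in arrays with no called gain. In no-lymphoma mouse 13 they averaged 0.45, against -0.12 for probes 1 and 2. The gained run covered chr2:5650560-34509246, or 28.9 Mb with 2840 probes. Notch1 lay 0.27 above the median of the window, with a noise SD of 0.23. An excess as large over the probes within 650 kb was seen for 0.679% of genes in this array. Its 5′ step was -0.03, a size that 88.9% of gene ends reached.

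In no-lymphoma mouse 2 the probes read 0.48, 0.62, 0.13, 0.44, 0.72 and 0.58. All but probe 3 were raised, while the 8 probes below the gene averaged 0.06. The first probe beyond the 5′ end, on the transcript AB101636, was also raised, at 0.60, and the 8 probes above the gene averaged 0.29. The gene lay 0.39 above the median of the window, with a noise SD of 0.15, and 0.899% of genes had such an excess over the probes within 650 kb. Its 5′ step of 0.23 was matched by 10.2% of gene ends. Its segment had a mean of 0.12 and was not called, but a gain was called with a lower penalty on breaks, of 2 in place of 3.

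Low values within the gene occurred in the noisy arrays labelled no-lymphoma mouse 3, 4 and 9. Probe 4 read -0.59, -0.80 and -0.79, and probe 5 read -1.39, -1.29 and -1.39, while their probe 6 read 0.22, 0.34 and 0.26. In these 3 arrays values under 0 occurred at probes 2, 4 and 5, those of probe 2 at -0.15 to -0.10, and the 5′-most probe was not among them. The Cy3 channel of probe 5, wildtype as labelled, was bright there, at intensities of 2121, 1438 and 1517 against a median of 411 over all arrays. The part of that brightness in the low ratios was not tested. As labelled, probe 5 was in the lowest 1.21%, 1.39% and 0.906% of autosomal probes of these arrays. With the sign turned it would read 1.39, 1.29 and 1.39 and lie in the highest 1.21%, 1.39% and 0.906%, so neither a low nor a high level is settled here.

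Probe 5 was also the most variable Notch1 probe over the other 11 arrays of the group, with values of -0.41 in mouse 7 and 0.81 in mouse 13. Its SD over the 14 arrays, 0.79, exceeded that of 98.8% of autosomal probes, and without the 3 noisy arrays its SD of 0.47 exceeded that of 95.4%. Probe 6, the 5′-most, was the steadiest, with an SD of 0.21 that exceeded 36.8% of probes, and 72.6% without the 3 noisy arrays.

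Across all arrays the 5′ step was -0.20 ± 0.36 in the lymphomas (SD, n = 8) and -0.09 ± 0.29 in the other mice (SD, n = 14), with ranges of -0.997 to 0.05 and -0.53 to 0.40. The groups overlapped, and the difference of -0.10 turned to 0.01 without lymphoma mouse 1. It was -0.21 without the 3 noisy arrays, -0.31 with their sign turned, -0.24 with that of scan batch 2 turned and -0.25 with scan batch as a block. The 3′ step, probes 1 and 2 minus the other 4, was 0.01 ± 0.31 and -0.07 ± 0.33. Its highest lymphoma values were 0.49 in mouse 4 and 0.48 in mouse 1, and no-lymphoma mouse 9, as labelled, reached 0.55.

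Notch1 minus the median of its flanks was 0.19 ± 0.31 in the lymphomas (SD, n = 8) and 0.02 ± 0.19 in the other mice (SD, n = 14), and the groups overlapped. The difference of 0.17 was 0.11 without the 3 noisy arrays, 0.08 with their sign turned and 0.12 with that of scan batch 2 turned. It was 0.04 with scan batch as a block and 0.07 without lymphoma mouse 3. The flanks show how far each gain reached. Within the window, 30 named genes or transcripts lie below Notch1 and 18 above it. In lymphoma mouse 1, 30 of 30 below were at 0.25 or more, with a median of 2.13, against 3 of 18 above, with a median of 0.09. In lymphoma mouse 2 the counts were 29 of 30 and 18 of 18, with medians of 0.80 and 0.67. In lymphoma mouse 3 they were 30 of 30 and 18 of 18, with medians of 1.61 and 1.02. Of the 4 lymphomas with a gained probe, only mouse 1 had 1 raised side and 1 side near 0.

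In lymphoma mouse 4, 13 of 30 genes below and 11 of 18 above reached 0.25, with medians of 0.22 and 0.28. The highest was Inpp5e, at 1.09 over 2 probes, followed among genes with more probes by Sec16a, at 0.85 over 4. In no-lymphoma mouse 11 the counts were 25 of 30 and 13 of 18, and in no-lymphoma mouse 2 they were 6 of 30 and 3 of 18. In both of these mice Notch1 had the highest level of the 17 genes with at least 3 probes.

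Named neighbours show the edges. Kcnt1, a potassium channel gene, read 1.90, 0.72, 1.401 and 0.08 in lymphoma mice 1 to 4, and Nacc2, a transcriptional repressor gene, 2.12, 0.82, 1.603 and 0.08. Sec16a, next to the 3′ end of Notch1, read 2.35, 0.87, 1.69 and 0.85. Egfl7, a gene for a secreted protein of blood vessels beyond the 5′ end, read 0.21, 0.69, 0.80 and 0.34. Adamts13, whose protease cuts von Willebrand factor, read 0.05, 0.61, 1.03 and 0.15. Mouse 1 was thus high at every gene up to Notch1 and low from Egfl7 on, and of these 5 genes mouse 4 was highest at Sec16a.

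**Figure D5:**
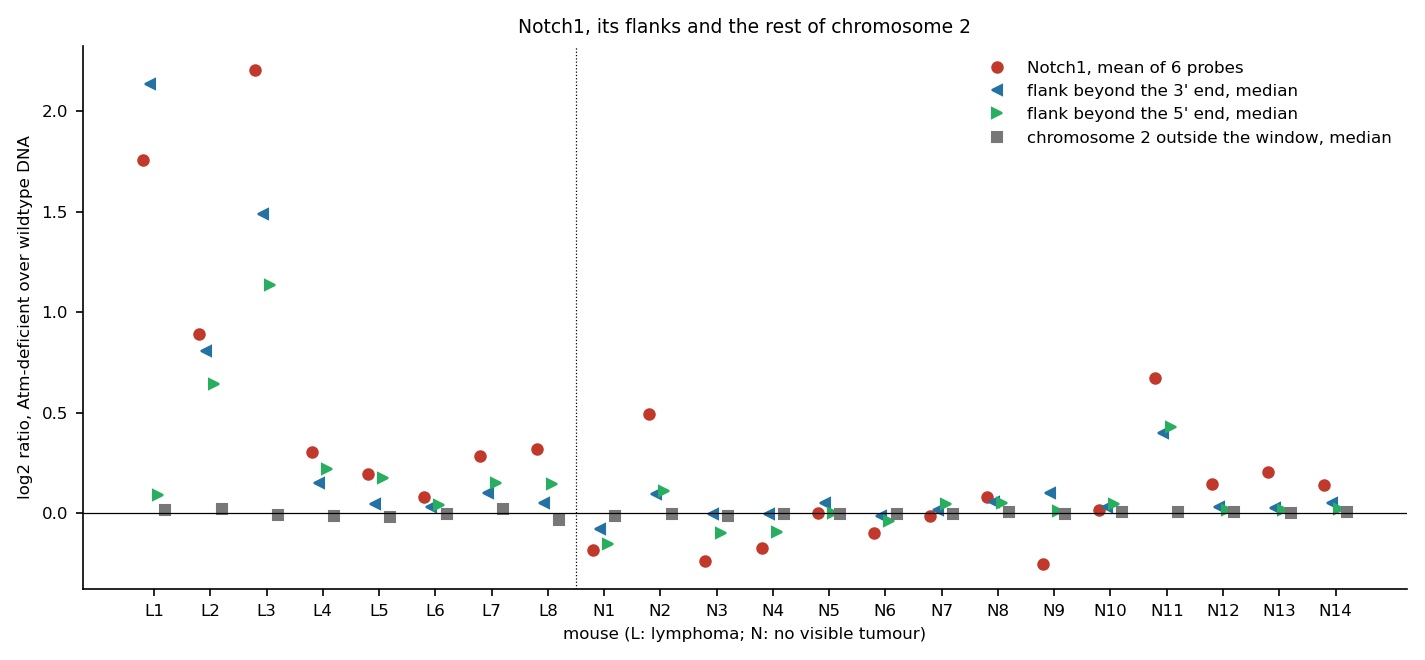
Notch1 mean of 6 probes, median of the flank beyond each end of the gene within the window, and median of chromosome 2 outside that window, as log2 ratios for each mouse. Outside the window the median of every mouse lies between -0.03 and 0.02, a measure that a gain of part of the chromosome hardly moves. Lymphoma mouse 1 has 1 flank at 2.13 and the other at 0.09. Notch1 lies above both flanks in lymphoma mice 2 to 8 and in no-lymphoma mice 2, 8, 11, 12, 13 and 14. Its excess over the median of both flanks together is largest in lymphoma mouse 3 (0.89) and no-lymphoma mice 2 (0.39) and 11 (0.27).

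Chromosome 2 outside the window, 16477 probes that had no part in the choice of the gene, was tested. Its median was -0.0022 ± 0.0206 in the lymphomas (SD, n = 8) and -0.00075 ± 0.00735 in the other mice (SD, n = 14). The difference of -0.0014 was smaller than either spread (exact two-sided permutation test over 319770 splits, p = 0.815). With the arrays centred on the mode of their log2 ratios it turned to 0.03 (exact permutation p = 0.124), and p ran from 0.124 to 0.827 over the alternatives. A median over so many probes hardly moves with a gain of part of the chromosome. Lymphoma mice 1 and 2 and no-lymphoma mouse 11 had gained runs of 23.5, 37.4 and 28.9 Mb, largely outside the window. Their medians were still 0.018, 0.022 and 0.009, so the test does not show that the rest of chromosome 2 was unchanged.

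Other genes of the Notch pathway were compared between the groups with limma over 12986 autosomal genes with at least 3 probes, of which 9.19% passed a Benjamini-Hochberg adjusted p of 0.05, 6.68% higher and 2.51% lower in lymphoma. Of 57 listed genes besides Notch1, 37 could be tested. The list was chosen with earlier results of these data known, so its counts and p-values are not independent of them. Of these, 4 were higher and 1 was lower in the lymphomas, and the median difference over the 37 was 0.08, beside 0.05 over all genes tested. With scan batch as a term, Ep300 and Bcl11b passed and the other 3 did not. Without the 3 noisy arrays the same 5 genes passed, and with their sign turned Mfng did not. The share of higher calls among all calls was 72.7%, and it was 90.99% with centring on the mode, 90.9% with another background correction (normexp) and 87.8% with the batch term.

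Among the ligands only Jag1 was tested, at -0.14 ± 0.34 against 0.02 ± 0.14, and did not pass. The other receptors did not pass either, with differences of 0.06 for Notch2, 0.08 for Notch3 and 0.04 for Notch4. The highest value of these 3 in any lymphoma was 0.29, for Notch3.

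Of 11 tested genes that modify or cut the receptor, 2 were higher. Mfng, a fringe enzyme that adds sugars to Notch, was at 0.47 ± 0.27 in the lymphomas and -0.07 ± 0.31 in the others (limma adjusted p = 0.00555), and it was above 0 in 8 of 8 lymphomas. Pofut1, which adds fucose to Notch and lies on chromosome 2 far from Notch1, was at 0.25 ± 0.19 and 0.03 ± 0.07 (limma adjusted p = 0.0171), and also above 0 in 8 of 8. With the batch term the limma adjusted p was 0.274 and 0.235. Ncstn, a gamma-secretase subunit, was at 0.40 ± 0.27 and 0.11 ± 0.36 and did not pass, though it too was above 0 in 8 of 8. That count therefore does not set apart the genes that passed.

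Of 5 tested genes of the nuclear complex, Ep300, an acetyltransferase that Mastermind-like proteins recruit, was higher, at 0.59 ± 0.20 against 0.04 ± 0.21 (limma adjusted p = 0.000169), and above 0 in 8 of 8 lymphomas. Rbpj, the DNA-binding partner of the receptor's intracellular domain, was at 0.06 ± 0.03 and 0.04 ± 0.06. It was also above 0 in 8 of 8 lymphomas but did not pass. None of 9 tested genes of turnover and inhibition passed. Fbxw7, which marks the intracellular domain for destruction, was at -0.01 ± 0.08 and -0.01 ± 0.12.

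Of 8 tested T-lineage targets, 1 was higher and 1 lower. Il7r, the receptor chain for interleukin-7, was at 0.50 ± 0.28 against 0.10 ± 0.21 (limma adjusted p = 0.0121) and above 0 in 8 of 8 lymphomas, and with the batch term its limma adjusted p was 0.191. Bcl11b, a transcription factor that T cells need, was at -0.61 ± 0.20 against -0.08 ± 0.26 (limma adjusted p = 0.00112), and no lymphoma was above 0. Mfng, Ep300 and Il7r all lie on chromosome 15, so 3 of the 4 higher genes share a chromosome. Nrarp, a Notch target and inhibitor at 25188513 on chromosome 2, had 1 probe and was not tested. It averaged 0.41 ± 0.51 and -0.16 ± 0.79.

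The genes whose mean log2 ratio was most like that of Notch1 over the 22 arrays are given as a description, since the arrays share noise and scan batch with them. On chromosome 2 outside the window these were Tsc1, Ralgds, Wdr5, Col5a1 and Tmem203, with Pearson r from 0.79 down to 0.74. On the other autosomes they were Zbtb21, Kansl3, Midn, B3galt5 and Myh10, with r from 0.84 to 0.81. Without lymphoma mice 1 and 3, r was 0.72 to 0.77 for the 5 genes of chromosome 2 and 0.54 to 0.75 for the 5 others, lowest for Zbtb21 and highest for Myh10. Zbtb21 read 1.25 and 0.78 in lymphoma mice 1 and 3 but 0.06 and 0.11 in lymphoma mice 2 and 4, so its likeness to Notch1 rests mainly on the former pair.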

How the data were processed

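Spot intensity in both channels was taken from the deposited scanner files, whose processed signals the authors background-subtracted and dye-normalised with Feature Extraction 9.1.3.1, protocol CGH-v4_91, per the file headers (9.1 per the submitters' processing notes). The deposited log10 ratio served as an alternative. Gene names were updated through RefSeq, assembly GRCm38.p6. Outlier spots (3 to 111 per array) were left out, and log2 ratios of 220065 autosomal probes (median spacing 7850 bases) gave the centring, with no loess. Segments came from optimal partitioning with a penalty of 3 and at least 5 probes (Python 3.11.15, numpy 2.4.6, numba 0.67.0). The test across genes was limma 3.58.1 (R 4.3.3), and methods were tested on simulated data. With 1 array per mouse, precision is limited by how many arrays there are.

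The members and lists were chosen with earlier results of these data known. Named genes were Notch1, genes of the window around it, listed pathway genes that passed with the others as ranges, and the 5 genes most like Notch1 per set. Pathway genes named without passing (Jag1, Notch2 to Notch4, Ncstn, Rbpj, Fbxw7 and Nrarp) were chosen after their values were seen. Normexp (offset 50) used median spot signals in place of the planned means, since 4 files alone held means.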

Additional observations from a re-analysis of the deposited data

Results flagged for a closer look

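Among 20 checks of the highest or lowest array in 10 groups of lymphoma values, 2 arrays stood far from the rest of their group, and chance alone flags about 1 in 20 groups. Both flags are on Notch1 values, and the gene was chosen by its values in these arrays. They are therefore descriptions and do not set chance aside. The lowest 5′ step was that of lymphoma mouse 1, at -0.997, with a gap to the next array of 0.59 of the group's range. The highest Notch1 level relative to its flanks was that of lymphoma mouse 3, at 0.89, with a gap of 0.61 of the range.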

How the results depend on the processing

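Lymphoma mice 1, 2 and 3 were called gained over Notch1 under all 9 alternatives run. Among these, turning the sign of no-lymphoma mice 3, 4 and 9 and counting any probe could not remove such calls. Lymphoma mouse 4 was added when any probe counted. The no-lymphoma count of 1 became 2 with a penalty of 2 and 0 with normexp. The group difference in the Notch1 level, 0.70, fell to 0.41 with scan batch as a block and to 0.0504 and -0.0220 within batches 5 and 6. Leaving out lymphoma arrays singly gave 0.49 to 0.79. The difference in the Notch1 excess over its flanks, 0.17, was 0.04 with scan batch as a block, -0.125 and -0.0723 within batches 1 and 6, 0.36 with flanks 1 Mb beyond the window, and 0.07 to 0.22 leaving out single lymphomas. That in the 5′ step, -0.10, was -0.25 with the block, -0.75 and 0.17 within batches 1 and 5 and -0.40 with 1 probe at the end. It was -0.136 to 0.0136 leaving out single lymphomas, the last without mouse 1. Chromosome 2 outside the window turned to 0.0310 with centring on the mode, and to 0.00323, 0.00297 and 0.00485 within batches 1, 3 and 6. Limma called 1193 genes, but 660 with normexp, 426 with the batch term and 710 without scan batch 2. The pathway count of 5 fell to 2 with the batch term and 3 without scan batch 2. Higher calls were 63.8% of all calls with the sign turned for no-lymphoma mice 3, 4 and 9, as labelled. The causes were not tested. No paired analysis was possible because the labels give no replicate numbers shared between the groups. Probe spacing limits each edge to the gaps given.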
